A study of Mus musculus with 2 samples.

Results

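The genes described here are 6 enzymes that break down arginine or other amino acids, or rebuild arginine: Arg1, Arg2, Nos2, Il4i1, Odc1 and Ass1. They are 6 of the 27998 genes in the files, and each was found by its symbol in both libraries. They were chosen because earlier results on these same cells had shown them to differ between conditions or cell classes, so their levels and ratios are given as a description and no test is made on them.

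Arginine stands where several routes meet. Arginase 1 (Arg1, in the cytosol) and arginase 2 (Arg2, in mitochondria) split it into urea and ornithine, and ornithine decarboxylase (Odc1) turns ornithine into putrescine, the entry to the polyamines that growing cells use. Inducible nitric oxide synthase (Nos2) uses the same arginine to make nitric oxide and citrulline, and argininosuccinate synthase (Ass1) starts the path from citrulline back to arginine. Il4i1 is a secreted oxidase of aromatic amino acids, chiefly phenylalanine, best known from antigen-presenting cells. In inflamed lung these enzymes are mostly described in macrophages.

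Lung organoids were grown from sorted AT2 cells, the surfactant-making stem cells of the alveolus. The cells carried the lineage label of SPC-CreERT2;R26RtdTomato mice, in which tamoxifen-activated Cre under the surfactant protein C promoter switches on tdTomato, on a C57BL/6 background. They were co-cultured for 2 weeks in Matrigel with lung stromal cells. The stroma had been depleted of CD31+, EpCAM+ and CD45+ cells, a step aimed at endothelial, epithelial and blood cells. Control organoids received no IL-1β (PBS) and IL-1β-treated organoids received the cytokine in the medium, with 1 library of droplet-based scRNA-seq for each. The 2 weeks come from the description of the series. The study's text gives the dose of IL-1β and the day of harvest differently in different places, and the number of mice behind each library is not given in the sources used here.

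The control library held 33965848 unique molecular identifiers (UMIs, each counted molecule) in 2101 barcodes, and the IL-1β library 41220175 in 3066. Median depth was 14613 and 11496.5 UMIs per barcode, 5139 cells were kept, and 11 barcodes occurred in both libraries. With 1 library per condition, a difference between treatment and library cannot be told apart, cells are not replicates, and every 95% interval below covers counting error only. Of 16 clusters, 15 drew at least 95% of their cells from 1 library.

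Cells were grouped by markers into AT2-lineage-like (699 control and 1871 IL-1β cells), AT1-like (220 and 433, the flat gas-exchange cells that AT2 cells give rise to), stromal-like (784 and 478), DATP-like (damage-associated transient progenitors, 0 and 215) and cycling cells (85 and 4). Surfactant genes marked the first class and collagen genes the stroma in both libraries. Most control AT2-lineage-like cells lay in cluster E2, led by Bex2, whereas the IL-1β cells lay in E1 (led by Cd177), E3 (Slc26a4, Cxcl5) and E5 (Meg3, Fgl1). The IL-1β-treated AT1-like cells, cluster E4, had the DATP markers AW112010 and Cldn4 among their leading genes beside the AT1 markers Akap5 and Hopx. The lack of control DATP-like cells depended on the setting. With another random seed 32 control cells took this name, and with every barcode kept 28 did. The paper reports a small DATP cluster in control organoids. A cluster of 53 IL-1β cells led by Scgb3a1, Ccl20 and Reg3g (E10) and a control cluster of 279 cells led by Scgb1a1 (E6) stayed unnamed.

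On GRCm38 (GENCODE M21 annotation) Arg1 lies at chr10:24915221-24927484 on the minus strand, and the other genes lie on the plus strand. Arg2 is at chr12:79130777-79156301, Nos2 at chr11:78920787-78960254, Il4i1 at chr7:44816387-44840809, Odc1 at chr12:17544794-17551505 and Ass1 at chr2:31470207-31520672. Il4i1 overlaps Nup62 on its own strand, and Tbc1d17 and Atf5 on the other, so the division of reads between Il4i1 and Nup62 is uncertain. Nup62 itself stood at 14.0 UMIs per 1000000 UMIs of the cell class (CPM) in control and 19.9 in IL-1β AT2-lineage-like cells. Arg2 overlaps Vti1b, on the opposite strand, which stood at 81.3 and 76.3 CPM.

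RefSeq promoter windows (GRCm38.p6) were found for 3 of the 6 genes. Those of Odc1 and Ass1 are shown. That of Il4i1 lies within annotated untranslated exon sequence, and no window was found for Arg1, Arg2 and Nos2. The windows start 250 bases before the RefSeq start and stop where the GENCODE transcript begins. Capitals mark GGGCGG, the GC box, on either strand.
Odc1: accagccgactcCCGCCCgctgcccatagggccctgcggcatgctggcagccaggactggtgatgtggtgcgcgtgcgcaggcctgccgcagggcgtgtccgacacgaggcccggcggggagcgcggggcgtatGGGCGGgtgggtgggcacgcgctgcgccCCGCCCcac
Ass1: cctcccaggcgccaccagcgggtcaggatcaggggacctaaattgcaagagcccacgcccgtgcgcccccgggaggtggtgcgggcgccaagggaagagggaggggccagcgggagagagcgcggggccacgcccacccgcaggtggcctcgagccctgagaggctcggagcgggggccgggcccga
The Odc1 window, chr12:17544623-17544793 on the plus strand, is 171 bases long with 77.2% G or C, and holds the GC box 3 times, at 238, 116 and 88 bases before the start. That of Ass1, chr2:31470020-31470206 on the plus strand, is 187 bases long with 75.4% G or C, and holds none. A GC box occurs in 19.6% of 32851 promoter windows of the Odc1 length and in 22.2% of those of the Ass1 length. Neither window holds a match on either strand to the κB site, to CACGTG (the E-box of Myc and related factors), to TGANTCA (the AP-1 site), to TTGCNNAA (the core of the C/EBP site) or to TATAAA (the TATA box), which says only that these letters are not in these windows.

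Of the 6 genes, all but Odc1 had most of their UMIs in the same compartment, epithelium or stroma, in both libraries. Arg1, Arg2 and Il4i1 were epithelial: epithelial clusters held 96.7% of control and 97.9% of IL-1β UMIs of Arg1, 95.6% and 92.6% of those of Arg2, and 95.9% and 97.7% of those of Il4i1. Nos2 and Ass1 were stromal, with 93.3% and 90.1% of Nos2 UMIs and 86.1% and 89.4% of Ass1 UMIs in stromal-like cells. Odc1 was found in both compartments, with 48.6% and 58.4% of its UMIs in stromal-like cells. The stroma made up 37.7% of control and 15.6% of IL-1β cells, so these percentages also follow the makeup of each library.

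**Figure D1:**
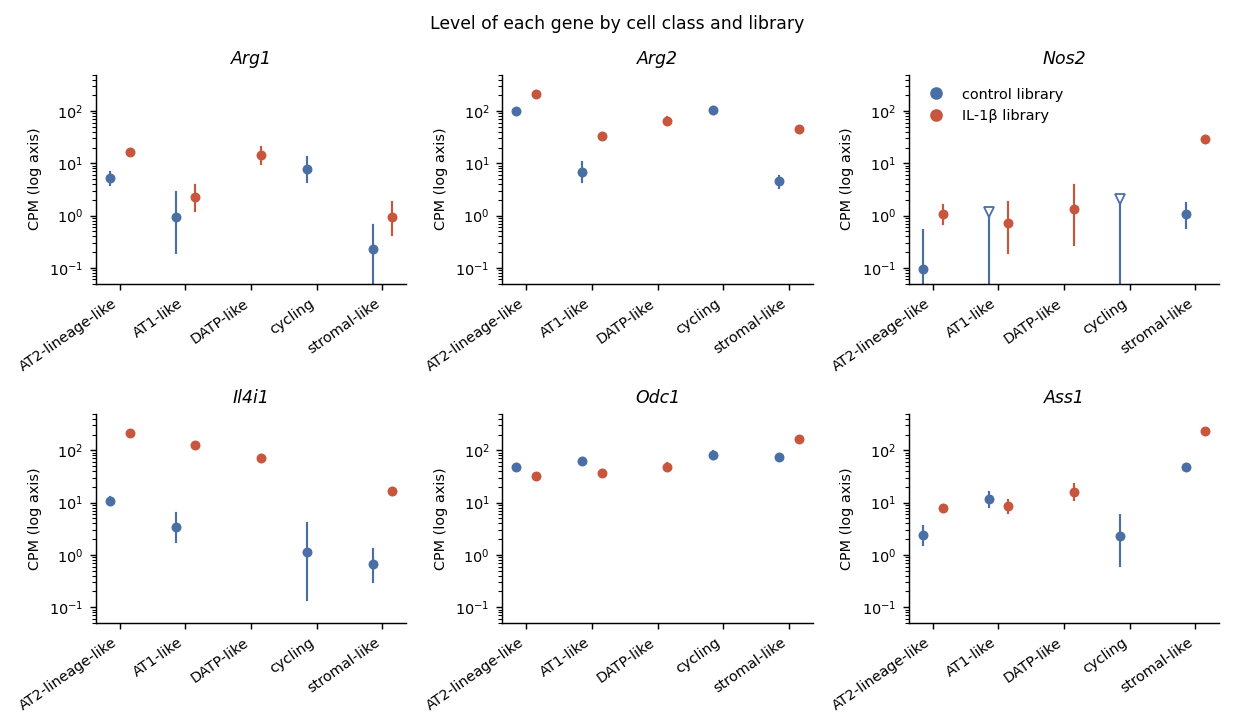
Level of each gene (CPM, log axis, a panel per gene) in the 5 cell classes; points are the libraries, bars are exact 95% Poisson intervals for counting error, and classes of under 50 cells in a library are not shown. In AT2-lineage-like cells the IL-1β points of Arg1, Arg2, Il4i1 and Ass1 lie above the control points and that of Odc1 below, whereas in stromal-like cells the Odc1 point lies above.

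Arg1, the cytosolic arginase of liver and of alternatively activated macrophages, was scarce. In AT2-lineage-like cells it stood at 5.13 CPM in the control library (95% interval 3.84 to 6.71, 53 UMIs) and at 16.8 CPM in the IL-1β library (15.2 to 18.6, 373 UMIs), 3.28 times higher (2.46 to 4.46). After each cell was thinned to 4500 UMIs, 1.94% of control and 5.89% of IL-1β cells were expected to hold an Arg1 UMI, beside 0.0903% and 0.617% of stromal-like cells (median depths of 14252 and 11341 UMIs in AT2-lineage-like and of 15638 and 14828 in stromal-like cells). Its counts were concentrated: the 94 IL-1β cells with the most Arg1, 5% of the class, held 67.3% of its UMIs, with up to 15 in a cell. In the control library 41 of the 45 positive cells held a lone UMI.

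Among clusters, the Arg1 level in E5 stood apart. This IL-1β cluster of 423 AT2-lineage-like cells stood at 52.6 CPM (46.2 to 59.6) and held 243 UMIs, 56.6% of all Arg1 in its library. Beside Meg3 and Fgl1, its leading genes included Lyz1 and Arg1 itself, although Arg1 had been left out of the clustering. The next cluster was the DATP-like E8 at 14.3 CPM (9.81 to 20.2), whose interval overlapped that of E1 at 10.0 CPM (8.19 to 12.1) and that of the control cycling cells at 7.90 CPM (4.32 to 13.3). E3, also AT2-lineage-like and IL-1β-treated, stood at 3.64 CPM (2.37 to 5.33), a level that overlapped the 5.16 CPM (3.85 to 6.77) of the control cluster E2. Among IL-1β AT2-lineage-like clusters, levels above the control cluster E2 were thus found in E5 and, less so, in E1, but not in E3. The DATP-like E8 also stood above E2.

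Arg2, the mitochondrial arginase, was far more abundant than Arg1 in molecules counted, and was spread over many cells. AT2-lineage-like cells stood at 101 CPM in the control library (94.7 to 107, 1040 UMIs) and at 215 CPM in the IL-1β library (209 to 221, 4766 UMIs), 2.14 times higher (2.00 to 2.29). At equal depth 31.7% of control and 54.3% of IL-1β cells held Arg2, beside 1.99% and 16.5% of stromal-like cells. The top 5% of IL-1β cells held 19.6% of its UMIs, against the 67.3% for Arg1. The 2 shares are not at equal count (4766 UMIs of Arg2, 373 of Arg1), and a low count alone raises such a share.

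The cluster order of Arg2 differed from that of Arg1. Arg2 was highest in E1 at 262 CPM (252 to 272) and in the unnamed E10 at 245 CPM (214 to 279), whose intervals overlapped. E5 followed at 200 CPM (188 to 214) and E3 at 157 CPM (148 to 166), both above the control cycling cells at 103 CPM (88.9 to 119) and E2 at 99.3 CPM (93.2 to 106), which overlapped. DATP-like cells stood at 64.1 CPM (54.0 to 75.5), below the 3 IL-1β AT2-lineage-like clusters. In AT1-like cells Arg2 stood at 6.96 CPM in control (22 UMIs) and at 33.2 CPM in IL-1β cells (188 UMIs), 4.77 times higher (3.06 to 7.80), a ratio that ran from 3.05 with every barcode kept to 7.74 as a mean over cells.

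Il4i1 showed the widest gap between the libraries among the epithelial members. In AT2-lineage-like cells it stood at 10.8 CPM in control (8.93 to 13.0, 112 UMIs) and at 211 CPM in IL-1β cells (205 to 217, 4676 UMIs), 19.5 times higher (16.1 to 23.7). At equal depth 2.99% of control and 43.0% of IL-1β cells held Il4i1, beside 0.252% and 7.18% of stromal-like cells. The control value rested on few cells: 16 of the 699 control cells fell into the IL-1β clusters E1 and E3, and these held 62.5% of the control Il4i1 UMIs, 70 of 112. None of the 16 carried a barcode found in both libraries. The control cells of E2 stood at 4.17 CPM (3.004 to 5.63).

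Il4i1 was high in every IL-1β epithelial cluster, from 70.4 CPM (59.8 to 82.3) in DATP-like cells, through 128 in the AT1-like E4, 162 in E5 and 208 in E3, to 235 CPM (225 to 244) in E1. Far above these stood E10, the 53 unnamed cells led by Scgb3a1, Ccl20 and Reg3g, at 1251 CPM (1180 to 1325). These cells held 1164 UMIs, 16.9% of the library's Il4i1, with up to 113 in a cell, and 90.6% of them were positive before thinning. The leading genes depended on how the cluster was drawn. With seed 1, 34 IL-1β cells led by Ccl20 and Serpinb1a held 1057 Il4i1 UMIs, at 1963 CPM. Neither Scgb3a1 nor Scgb3a2 was among the 10 leading genes of that cluster. In E10 itself Scgb3a1, Scgb3a2 and Bpifa1, though among the leading genes, were each found in under 50% of the cells. The 1 control cell that fell into E10 held 71 Il4i1 UMIs. Nup62, which overlaps Il4i1, stood at 37.6 CPM in the IL-1β cells of E10, and Atf5 at 319 CPM. In AT1-like cells Il4i1 stood at 3.48 CPM in control (11 UMIs) and 126 CPM in IL-1β cells (714 UMIs), 36.2 times higher (20.1 to 72.9). This ratio moved with how the class was drawn, from 10.99 at resolution 2 to 63.6 with classes set from marker UMIs.

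**Figure D2:**
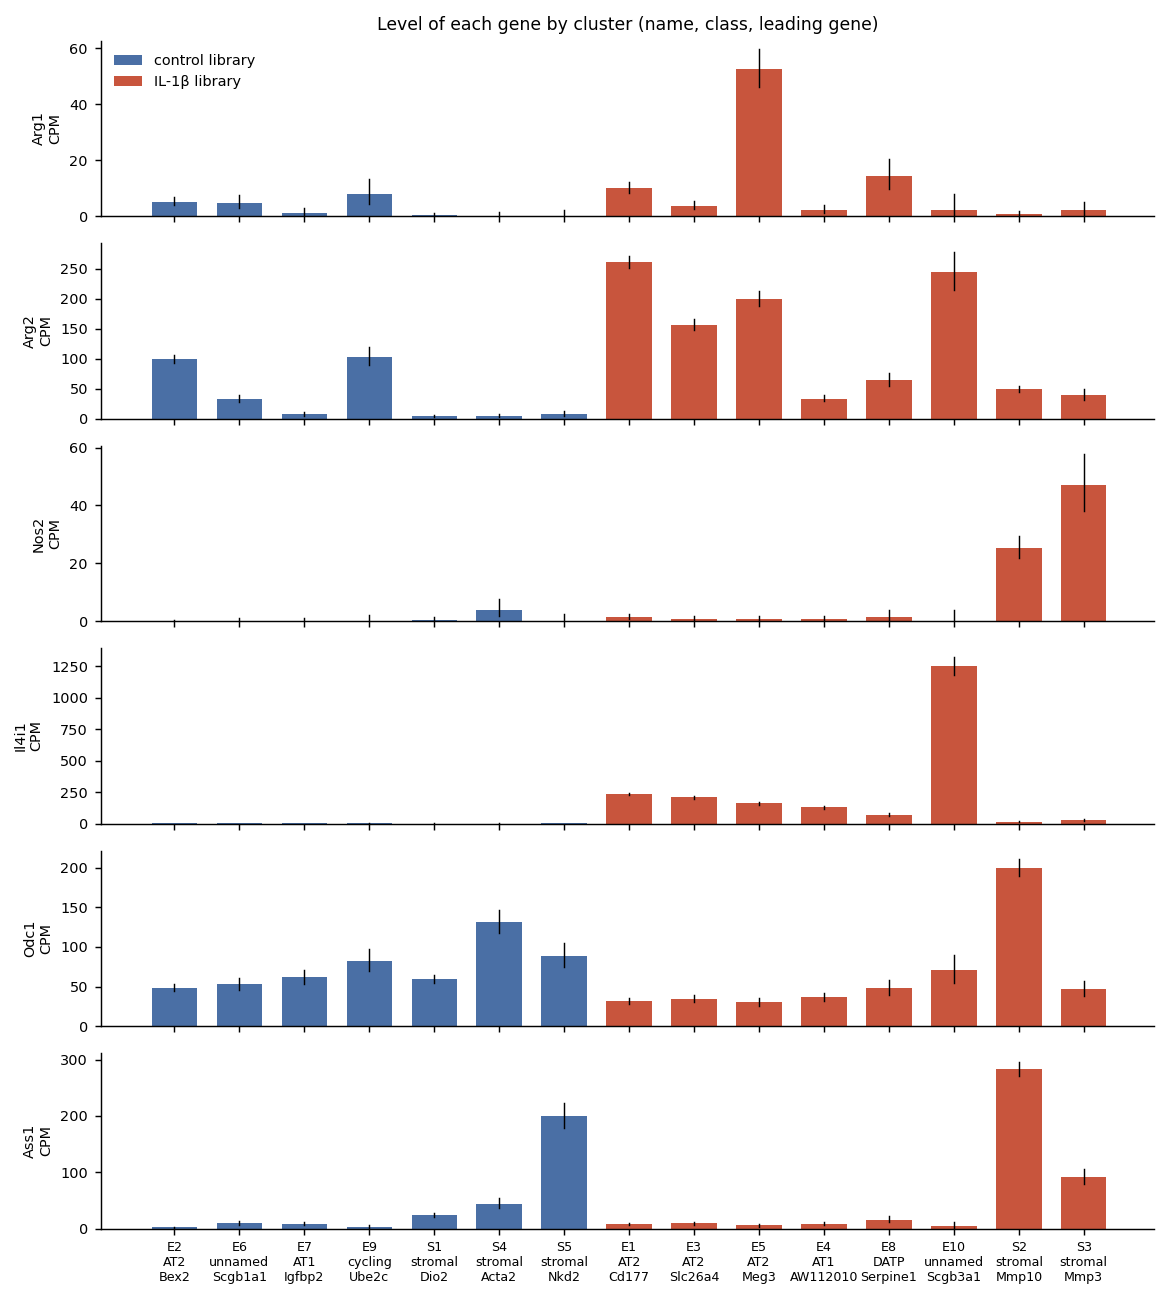
Level of each gene (CPM, linear axes from 0, a panel per gene) in every cluster with at least 50 cells of a library; bars are the level in the control or the IL-1β library and lines are exact 95% Poisson intervals for counting error. Arg1 peaks in E5 at 52.6 CPM, Il4i1 in E10 at 1251, Nos2 in S3 at 47.2, and Odc1 and Ass1 both in S2 at 200 and 284.

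Nos2, the inducible synthase, was nearly limited to stroma under IL-1β. Stromal-like cells stood at 1.05 CPM in control (0.576 to 1.77, 14 UMIs) and at 29.7 CPM in the IL-1β library (26.3 to 33.4, 282 UMIs), 28.2 times higher (16.5 to 52.2). At equal depth 0.401% of control and 11.6% of IL-1β cells held Nos2, beside 0.0183% and 0.364% of AT2-lineage-like cells. Of the 14 control UMIs, 9 lay in the Acta2-led cluster S4, 7 of them in 1 cell. The IL-1β stroma formed S3, led by Mmp3 and Spp1, at 47.2 CPM (38.1 to 57.7), and S2, led by Mmp10 and Il11, at 25.3 CPM (21.8 to 29.4). S3 cells were shallower, with a median of 8106 UMIs against 26559 in S2, and the share of cells with Nos2 at equal depth was 14.6% (10.1 to 20.1) in S3 and 9.49% (6.16 to 13.8) in S2, intervals that overlapped.

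Ass1, which rebuilds arginine from citrulline, was likewise stromal. Stromal-like cells stood at 48.5 CPM in control (644 UMIs) and at 237 CPM in the IL-1β library (2250 UMIs), 4.89 times higher (4.48 to 5.34). At equal depth 12.1% of control and 39.5% of IL-1β cells held it, beside 1.22% and 3.75% of AT2-lineage-like cells. Unlike Nos2, Ass1 was highest in S2, at 284 CPM (271 to 297), which held 78.8% of the library's Ass1, and it stood at 91.8 CPM (79.0 to 106) in S3. Control stroma was not uniform either: the 77 cells of S5, led by Nkd2 and Dkk2, stood at 200 CPM (178 to 223) with 317 UMIs, against 44.3 CPM in S4 and 24.4 CPM in the Dio2-led S1.

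Odc1, the first step of polyamine synthesis, was the member whose ratio, over whole classes, lay above 1 in stroma and below 1 in epithelium. Stromal-like cells stood at 75.7 CPM in control (1006 UMIs) and at 165 CPM in the IL-1β library (1565 UMIs), 2.18 times higher (2.01 to 2.36). AT2-lineage-like cells stood at 48.1 CPM in control (497 UMIs) and 32.3 CPM in IL-1β cells (716 UMIs), a ratio of 0.672 (0.598 to 0.755), and AT1-like cells at 62.4 and 36.9 CPM, a ratio of 0.592 (0.485 to 0.723). Within the IL-1β stroma the higher level lay in S2 at 200 CPM (190 to 211), whereas S3 stood at 46.7 CPM (37.7 to 57.2). The control cluster S1 stood at 59.9 CPM (55.0 to 65.1), an interval that overlapped that of S3, and S5 (88.8) and S4 (131) stood higher. The share of stromal-like cells with Odc1 at equal depth was 25.4% (control) and 28.3% (IL-1β). The counts were concentrated, since the 24 IL-1β stromal-like cells with the most Odc1 held 53.2% of its UMIs, with up to 76 in a cell.

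A finer clustering (resolution 2) split S2 into 180 and 70 cells. The 70 cells, led by Mmp10, Mmp12 and Il11, stood at 728 CPM for Odc1, 39.6% of the library's UMIs, and at 566 CPM for Ass1, whereas the 180 cells stood at 61.2 and 210 CPM. Arg2 reached 137 CPM in the 70 cells, above the 64.1 CPM of DATP-like epithelium, and Nos2 stood at 18.5 CPM there against 27.1 in the 180 cells. For Odc1 the 180 cells (54.8 to 68.0) and the 210 Mmp3-led cells at 46.7 CPM (37.7 to 57.2) stood below the 75.7 CPM (71.1 to 80.6) of all control stromal-like cells. Both intervals overlapped that of the largest control stromal cluster at this resolution, 501 cells at 57.7 CPM (52.5 to 63.2). The higher level of the IL-1β stroma thus lay mainly in the 70 cells, which held 1060 of its 1565 Odc1 UMIs.

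Counted over the genes with at least 100 UMIs in a class, 4 of the 5 members that passed stood at 2-fold or more higher in IL-1β AT2-lineage-like cells (Arg1, Arg2, Il4i1 and Ass1) and none at 0.5-fold or less, beside 10.0% of all 10108 such genes called in either direction (7.56% higher and 2.44% lower). In stromal-like cells 5 of the 5 that passed were higher (Arg2, Nos2, Il4i1, Odc1 and Ass1), beside 13.7% of 10019 genes (3.59% higher and 10.1% lower). AT1-like cells had 2 of 3 higher (Arg2 and Il4i1), beside 7.56% of 7866 genes (4.56% higher). Since the members were chosen from these differences, nothing is read from the counts. Arg2 in AT2-lineage-like cells (2.14) and Odc1 in stromal-like cells (2.18) lay just past the 2-fold line. Nos2 in AT2-lineage-like cells (1 and 24 UMIs) and Arg1 in stromal-like cells (3 and 9 UMIs) and AT1-like cells (3 and 13 UMIs) did not reach 100 UMIs, nor did Ass1 in AT1-like cells, at 0.740 (0.473 to 1.17), a ratio that became 1.32 with every barcode kept.

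**Figure D3:**
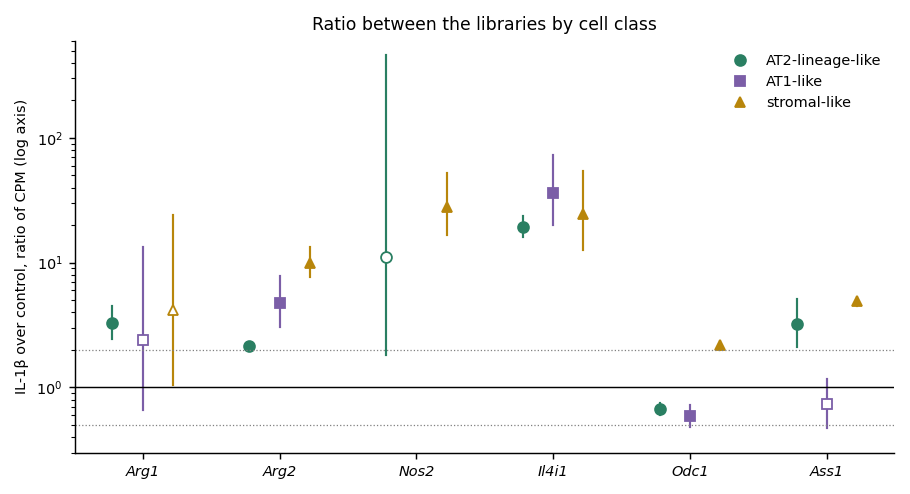
Ratio of CPM, IL-1β over control (log axis), for each gene in AT2-lineage-like, AT1-like and stromal-like cells; lines are exact 95% intervals for counting error and the level of 1 means no difference. Odc1 is below 1 in both epithelial classes (0.672 and 0.592) and above 1 in stromal-like cells (2.18), while Il4i1 lies between 19.5 and 36.2 in all 3.

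Droplets take up free RNA, so each member was set beside genes that the receiving class should lack. In stromal-like cells the surfactant-program genes Sftpc, Sftpb, Sftpa1 and Cxcl15 stood at 2.66% to 3.55% of their AT2-lineage-like level in control and at 5.56% to 6.15% in the IL-1β library. Arg1, from 3 and 9 stromal UMIs, stood above all 4 in control (4.40%) and among them in the IL-1β library (5.63%). Il4i1 stood at 6.25% and 7.83%, a little above them, whereas Arg2 stood at 4.49% in control and at 21.04% in the IL-1β library, well above them, with 45.3 CPM in IL-1β against 4.52 CPM in control stromal-like cells (430 and 60 UMIs, a ratio of 10.0, 7.64 to 13.4). The Il4i1 ratio in stromal-like cells, 24.4 (12.5 to 54.4), rests on 0.678 and 16.5 CPM. The part of carried-over RNA in these stromal values was not tested.

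In the other direction, Col1a1, Col1a2, Col3a1 and Dcn stood in AT2-lineage-like cells at 1.62% to 2.52% of their stromal level, and Sparc, which control AT1-like cells also held at 3616 CPM, at 6.99% in control and 5.47% in the IL-1β library. Ass1 stood at 4.99% and 3.32% and Nos2, from 1 control UMI, at 9.19% and 3.65%, above the first 4 markers in both libraries and, but for Nos2 in control, below Sparc. The Ass1 ratio in AT2-lineage-like cells, 3.25 (2.13 to 5.15), rests on 2.42 and 7.86 CPM and became 1.83 when each library was clustered separately. The part of carried-over RNA in it was not tested. Odc1 stood at 63.5% and 19.6%, above all 5 markers. AT1-like cells arise from AT2 cells and may hold surfactant-program genes of their own, so these genes do not gauge carry-over there. They stood at 9.54% to 23.9% of their AT2-lineage-like level in control and at 15.4% to 30.5% in the IL-1β library. Arg1 stood at 18.5% and 13.6%, Arg2 at 6.92% and 15.4%, and Il4i1 at 32.1% and 59.8%. The part of carried-over RNA in these AT1-like values was not tested.

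**Figure D4:**
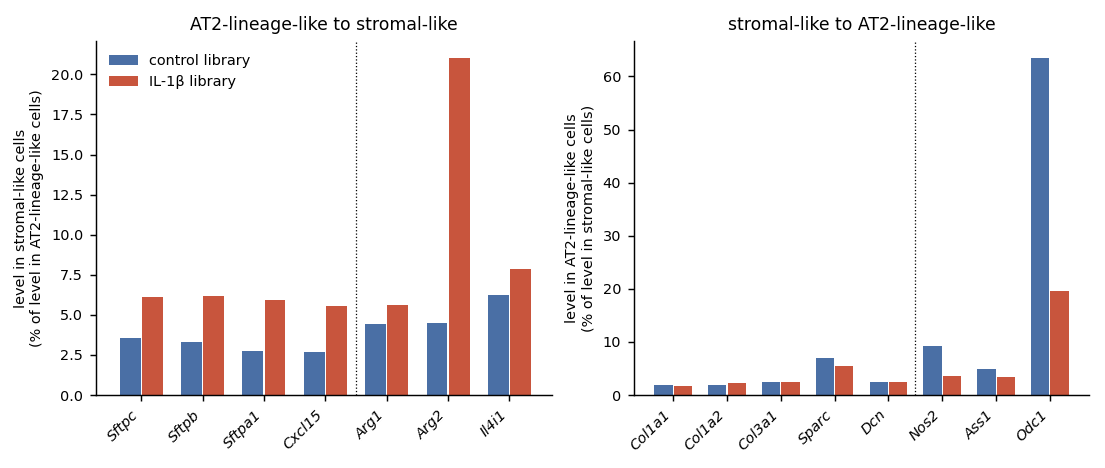
Level of each gene in a receiving class as a percentage of its level in the class named first above the panel, for marker genes left of the dotted line and the members right of it, by library. In stromal-like cells Arg2 (4.49% and 21.04%) and Il4i1 (6.25% and 7.83%) stand above every marker of their library. So does Odc1 in AT2-lineage-like cells (63.5% and 19.6%). Arg1 in stromal-like cells rests on 3 and 9 UMIs. Its value stands above the 4 markers in control (4.40%) and among them under IL-1β (5.63%). Ass1 in AT2-lineage-like cells (4.99% and 3.32%) lies above the markers other than Sparc.

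Leukocytes, a known source of Arg1, Nos2 and Il4i1, were scarce. Cells with at least 3 of Ptprc, Tyrobp, Csf1r and Adgre1 numbered 4 in the control library, all stromal-like, and 0 in the IL-1β library, which allows a share of up to 0.0981% of its cells, and the 4 cells held no UMI of Arg1, Nos2 or Il4i1. In IL-1β AT2-lineage-like cells Adgre1, Laptm5 and Marco, 3 of the 10 macrophage and leukocyte markers, were at 0 UMIs, and Ptprc, Tyrobp and Csf1r had 5, 1 and 2. The summed level of the list was 13.0 CPM in control and 39.8 CPM in IL-1β AT2-lineage-like cells, of which Cd68, a lysosomal protein, made up 7.36 and 39.2 CPM. It was 31.0 and 35.7 CPM in AT1-like cells, 44.2 and 18.2 CPM in stromal-like cells and 85.1 CPM in DATP-like cells, again mostly Cd68 (84.2 CPM). Removing every cell with a UMI of the 4 markers left all 36 class levels inside their intervals. Endothelial markers summed to 2.79 CPM in control and 16.3 CPM in IL-1β stromal-like cells, and 1.67% of the latter held Cdh5.

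The overlap of Arg1-positive and Arg2-positive cells was read at equal depth, as the number expected when each cell is thinned to 4500 UMIs. Of 1871 IL-1β AT2-lineage-like cells, 110.1 held Arg1, 1016 held Arg2 and 56.1 held both. Arg2 was thus found in 50.9% (41.2 to 60.5) of Arg1-positive cells and in 54.5% (52.2 to 56.9) of Arg1-negative cells, and Arg1 in 5.51% (4.19 to 7.10) of Arg2-positive cells. In control AT2-lineage-like cells the numbers were 13.6, 222 and 4.72, with Arg2 in 34.8% (11.9 to 64.5) of Arg1-positive and 31.7% (28.2 to 35.3) of Arg1-negative cells. In both libraries the intervals of cells with and without Arg1 overlapped, so no difference was detectable at this depth.

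The shares differed without thinning. Arg2 was then found in 36 of 45 control Arg1-positive cells (80.0%, 65.4 to 90.4), beside 61.3% of Arg1-negative cells. In the IL-1β library it was found in 168 of 216 Arg1-positive cells (77.8%, 71.6 to 83.1), beside 78.2% of Arg1-negative ones. The control interval lay above the Arg1-negative share, and the IL-1β interval held it. Whether differences in depth between cells account for the control gap was not tested. At equal depth within clusters, Arg2 was found in 59.7% of Arg1-positive against 62.5% of Arg1-negative cells of E1. The shares were 48.3% (35.8 to 61.0) against 55.1% in E5, and 36.2% against 44.3% in E3. DATP-like cells gave 37.8% (11.5 to 71.0) against 21.7% (16.3 to 28.0), from 10.6 expected Arg1-positive cells.

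**Figure D5:**
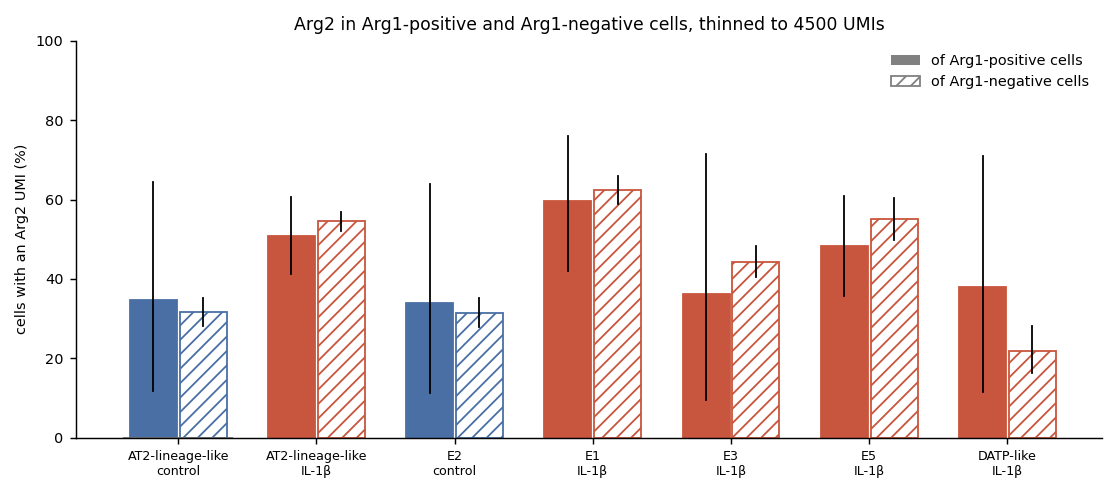
Share of cells with an Arg2 UMI among Arg1-positive (filled) and Arg1-negative (hatched) cells, expected after thinning each cell to 4500 UMIs; lines are exact 95% Clopper-Pearson intervals at the expected counts. In IL-1β-treated AT2-lineage-like cells the pair stands at 50.9% and 54.5%, and the intervals of each pair overlap.

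Other pairs of members were read the same way. In IL-1β AT2-lineage-like cells Il4i1 was found in 47.5% (44.4 to 50.6) of Arg2-positive and 37.6% (34.4 to 41.0) of Arg2-negative cells, intervals that did not overlap, though cells of different clusters are pooled here. Among Arg1-positive cells of the same class 33.9% (25.1 to 43.5) held Il4i1, against 43.6% (41.2 to 45.9) of Arg1-negative ones. In IL-1β stromal-like cells Odc1 was found in 34.4% (27.6 to 41.6) of Ass1-positive and 24.3% (19.5 to 29.7) of Ass1-negative cells, and Ass1 in 38.3% (25.6 to 52.3) of Nos2-positive against 39.6% of Nos2-negative cells. These pairs too pool cells of different clusters. At equal depth Ass1 was held by 48.5% of S2 and 30.1% of S3 cells, and Odc1 by 37.3% and 16.8%.

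The other genes of the pathway were taken from lists chosen with results of these data known, and are counted by the same call (2-fold or more, or 0.5-fold or less, among genes of at least 100 UMIs in a class). Over all such genes the median log2 ratio was 0.15 in AT2-lineage-like, −0.02 in AT1-like and −0.32 in stromal-like cells. In the same order of classes 10.0%, 7.56% and 13.7% of all such genes were called. Because of how the lists were chosen, nothing is read from their counts. The list medians, in the same order of classes, were 0.18, −0.56 and 0.30 for arginine transport, −0.25, −0.20 and −0.15 for the urea and citrulline cycle, 0.73, 0.98 and −0.68 for other uses of arginine, and 0.13, 0.10 and −0.40 for nitric oxide synthases and their cofactor. They were −0.10, 0.02 and −0.29 for polyamines, −0.26, 0.0027 and −0.25 for ornithine and proline, and 0.37, −0.47 and 0.27 for other amino acids.

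Of the genes around these enzymes, the arginine transporter Slc7a2 followed the stroma. It stood at 105 CPM in control and 246 CPM in IL-1β stromal-like cells, 2.35 times higher (2.20 to 2.52), and was the 1 gene called of the 4 transport genes that passed 100 UMIs, in stromal-like and in AT2-lineage-like cells (1.94 and 5.24 CPM, a ratio of 2.70, 1.67 to 4.59). In the latter it stood at 1.85% and 2.13% of its stromal level, inside the 1.62% to 2.52% of the collagen genes and Dcn. In AT1-like cells 1 of 2 was called, Slc7a7, which exports arginine from the cell and stood at 44.3 and 14.3 CPM, a ratio of 0.323 (0.243 to 0.428). Asl, which completes the citrulline path begun by Ass1, did not follow it, at 23.8 and 21.5 CPM in stromal-like cells (0.903, 0.753 to 1.08), and none of the 2, 1 and 1 urea and citrulline genes that passed in AT2-lineage-like, AT1-like and stromal-like cells was called. The shares called over all genes of these classes were 10.0%, 7.56% and 13.7%. The liver urea-cycle genes were absent or nearly so, with Otc at 0 UMIs in the 3 classes of both libraries and Cps1 at 0 or 1.

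Gch1, the first enzyme of the tetrahydrobiopterin cofactor that nitric oxide synthases need, was higher in the IL-1β library in epithelium and in stroma. In epithelium, where Nos2 had few UMIs, it stood at 45.2 and 105.6 CPM in AT2-lineage-like cells (2.33, 2.11 to 2.58). In AT1-like cells it stood at 23.4 and 73.0 CPM (3.12, 2.43 to 4.05). In stromal-like cells it stood at 47.6 and 82.0 CPM (1.72, 1.55 to 1.92), under the 2-fold line. It was the 1 gene called of 4 in each epithelial class, and none of 4 was called in stromal-like cells. Over all genes the shares called were 10.0% in AT2-lineage-like, 7.56% in AT1-like and 13.7% in stromal-like cells. Nos1 was at 0 UMIs in these classes, and Nos3 had 10 and 48 UMIs in AT2-lineage-like cells. Ddah2, which breaks down methylated arginines that inhibit these synthases, was 2.23 times higher (2.03 to 2.44) in AT2-lineage-like cells and 3.09 times higher (2.57 to 3.76) in AT1-like cells, but stood at 0.566 (0.506 to 0.633) in stromal-like cells. With Gamt, which makes creatine from an arginine product and was 3.05 times higher (2.23 to 4.26) in AT2-lineage-like cells but stood at 0.579 (0.432 to 0.770) in stromal-like cells, it gave 2 of 4 genes of other arginine use called there, beside 1 of 4 in AT1-like and 0 of 5 in stromal-like cells.

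Of 12 other polyamine genes that passed, 1 was called in AT2-lineage-like cells, 2 in AT1-like cells and 2 in stromal-like cells. Beside these stand 10.0%, 7.56% and 13.7% of all genes, in the same order. Smox, the spermine oxidase, was higher in all 3 classes, 3.62 times (2.90 to 4.56), 3.37 times (2.18 to 5.44) and 2.40 times (2.10 to 2.76). Paox, another polyamine oxidase, was higher in AT1-like cells (2.37, 1.44 to 4.08). Sms, which makes spermine, stood at 0.383 (0.332 to 0.441) in stromal-like cells, where Odc1 was higher, and Srm, which makes spermidine, at 0.998 (0.876 to 1.14).

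Among the routes from ornithine to proline and glutamate, 1 of 6 genes was called in AT2-lineage-like cells, Aldh18a1, which makes proline precursors from glutamate (2.24, 1.73 to 2.94). In stromal-like cells 1 of 5 was called, Aldh4a1 (0.464, 0.347 to 0.614), and none of 4 in AT1-like cells. For these and the counts below, the shares over all genes were 10.0% in AT2-lineage-like, 13.7% in stromal-like and 7.56% in AT1-like cells. Oat, which moves ornithine towards proline and glutamate, stood at 0.698 (0.667 to 0.731) in AT2-lineage-like cells and 0.544 (0.508 to 0.582) in stromal-like cells, but at 1.51 (1.34 to 1.69) in AT1-like cells. Of 9 other amino acid genes, 3 were called in AT2-lineage-like cells: Glul, glutamine synthetase, at 5.42 and 86.3 CPM (15.9, 12.2 to 21.1), Asns, asparagine synthetase (2.15, 1.78 to 2.61), and Cth, of cysteine synthesis (0.275, 0.208 to 0.361), which stood at 1.91 (1.41 to 2.61) in stromal-like cells. Asns was also higher in stromal-like cells (2.38, 2.11 to 2.70), the 1 gene called of 9, but stood at 0.583 (0.447 to 0.759) in AT1-like cells, where none of 6 was called. Of the enzymes that break down tryptophan, Ido1, Kynu and Haao were at 0 UMIs in all 3 classes. Tdo2, which catalyses the same first step as Ido1, had 1 control and 42 IL-1β UMIs in AT2-lineage-like cells, under the minimum of 100, and at most 1 UMI in either library of the other classes.

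Over the 15 cluster and library combinations of at least 50 cells, the genes whose levels were most like those of Arg1 were Svopl (Pearson's r of log2 of CPM plus 10, 0.88), Hgfac (0.87) and Ppp1r3c (0.85). For Arg2 they were Pf4 (0.96), Dmkn (0.95) and C2cd4b (0.94), and for Nos2 Serpinb2 (0.99), Mmp9 (0.98) and Mmp13 (0.98). These points share 2 libraries and were picked from all genes, so the values describe the ranking only.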

How the data were processed

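Droplet-based scRNA-seq was analysed for 1 control and 1 IL-1β library of AT2 organoids. The authors deposited raw UMI counts for every gene in every cell barcode, from Cell Ranger and the GRCm38 genome. The submitters' processing notes also name mm9, and no coordinates were taken from it. The cutoffs in the study's methods had not been applied to the files, nor had stromal cells been removed.

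The members and gene lists were chosen with earlier results of these data known. Kept were barcodes above 2000 UMIs that had over 500 genes but under 7000. Scrublet was run by the study's rule (score above 0.7, or cluster mean above 0.6 at resolution 20) and marked 3 of 5142 cells (0.0583%), so doublets remain. Cells were clustered with the Leiden algorithm in scanpy 1.11.5 (resolution 1, 50 principal components, 15 neighbours, seed 0), first to set stroma aside and then within epithelium, leaving out the members and pathway genes. The study used Louvain clustering, which was run as an alternative. Epithelial clusters took the name with the highest mean log2 fold of its markers over the other clusters (pseudocount 0.1), if at least 3 of them were detected in 50% of the cells or more and, except for AT2-lineage, a detected one was among the 10 leading genes, with no other name having more there. The rule was written with the clusters already known. It left E10 unnamed, although the airway markers scored highest there (4.58).

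Levels are summed UMIs of a class per 1000000 UMIs of that class (CPM), with Poisson 95% intervals; the intervals of ratios are conditional binomial, and both are exact. Shares of positive cells are the exact expectation after thinning each cell to 4500 UMIs, which every kept cell reached, with Clopper-Pearson intervals at the expected count, which need not be whole. Where a count was 0, 3 counts set the limit. Genes with at least 100 UMIs over both libraries in a class were counted as called at a ratio of at least 2 or at most 0.5. The ratio, its interval, the call and the expected share after thinning were tested on simulated counts. Clustering, class naming, overlaps and carry-over were not. The counts for the ratio were Poisson draws from whole-library sums of genes with many UMIs. Low class counts, true ratios near 2 and counts concentrated in few cells were not simulated. No test between conditions was made, since each has 1 library.

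Named were the 6 members, in each pathway list the genes past the call line and the partners of the members' reactions, and the genes most like Arg1, Arg2 and Nos2. Tried as alternatives were other resolutions, seeds and algorithms, separate clustering, classes without clusters, and other choices of cell filter, doublets, scaling, leukocyte removal, thinning and the UMI minimum. Proteins were not printed, and the in vivo libraries of the study were not analysed here.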

Additional observations from a re-analysis of the deposited data

Results flagged for a closer look

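The Odc1 ratio lay on opposite sides of 1 in the stroma and the epithelium. Its level in IL-1β over control was 2.18 in stroma (stromal-like cells), but 0.672 in the AT2-lineage-like and 0.592 in the AT1-like class. The difference between classes was not tested, since each condition has 1 library. The stromal value was carried by 70 Mmp10-led cells with 1060 of the 1565 UMIs (728 CPM, at resolution 2). The other stromal clusters with at least 50 IL-1β cells stood at 61.2 and 46.7 CPM, below the 75.7 CPM of control stroma taken whole. The intervals of both overlapped that of the largest control stromal cluster, at 57.7 CPM (52.5 to 63.2). Left out are a few IL-1β stromal-like cells in control-led clusters. In the main clustering these were 18 cells with 74 Odc1 UMIs.

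A signal outside the named classes was found in E10, the 53 IL-1β cells that stayed unnamed. Il4i1 stood there at 1251 CPM, while the highest control class reached 10.8 CPM, and Arg2 stood at 245 CPM, while the highest control class, the cycling cells, reached 103 CPM. The Arg2 level was not particular to E10. The IL-1β AT2-lineage-like cluster E1 stood at 262 CPM (252 to 272), an interval that overlapped that of E10. From the control library 1 cell, outside these classes, also fell into E10. It held 71 of the control library's 220 Il4i1 UMIs. In all, 30 control and 32 IL-1β cells fell into clusters led by the other library. Whether the 1 control cell is in the same state as the IL-1β cells, or was misplaced, was not tested. The 53 IL-1β cells of E10 had a median of 16915 UMIs per cell, and 5 Ass1 UMIs, 2 Arg1 UMIs and no Nos2 UMI.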

How the results depend on the processing

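No paired analysis was possible because each condition has 1 library, and for the same reason no replicate could be left out. The DATP-like class had under 50 control cells in every setting, so it was not compared between libraries. Members called at 2-fold numbered 5 of 5 in stromal-like cells in all 11 alternatives and 4 in AT2-lineage-like cells in all but 2, each giving 3: separate clustering of the libraries (Ass1 at a log2 ratio of 0.87) and scaling without surfactant, mitochondrial and ribosomal protein UMIs (Arg2 at 0.96), which shifts every log2 ratio by −0.14 in AT2-lineage-like cells and by −0.05 in the other classes. In AT1-like cells they numbered 2 except at resolution 2, which gave 0, since 1 member in place of 3 passed 100 UMIs in its smaller class (181 IL-1β cells in place of 433). There Arg1, at 3 and 13 UMIs in the main classes, reversed to a log2 ratio of −1.40. The cause was not tested. Since the members were chosen from these differences, nothing is read from these counts of calls. No share over all genes was computed under the alternatives. Of 187 log2 ratios 172 moved by less than their counting interval. Levels moved more: of 36 class levels, 14 stayed inside their intervals when scaled without surfactant, mitochondrial and ribosomal protein UMIs. With classes from marker UMIs 26 did, as a mean over cells 28, and under the other alternatives 29 to 36. The overlap of Arg1 with Arg2 in AT2-lineage-like cells became 80.0% in control and 77.8% in IL-1β cells without thinning, and 56.2% and 77.8% when thinned to 9000 UMIs, where shallower cells are left out. With a minimum of 20 UMIs, the pathway genes called numbered 14 in place of 9 in AT2-lineage-like, 9 in place of 5 in AT1-like and 8 in place of 5 in stromal-like cells, because more low genes enter. No share over all genes was computed at that minimum. The level of a member's highest cluster followed how cells were divided: under alternatives chosen after seeing the data, Odc1 ranged up to 738 CPM, and a cluster of 34 to 40 cells led by Ccl20 held Il4i1 at 1656 to 1963 CPM. Scgb3a1, which led E10, was not among the 10 leading genes of that cluster. Depth limits Nos2 in epithelium and Arg1 in stroma, where the IL-1β library held 31 and 9 UMIs.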
